A study of Mus musculus with 12 samples.

Results

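A set of 79 genes had their lowest signal, among the 3 endothelial-derived groups of this mouse study, in CD47 null endothelial cells grown as a monolayer. Members were chosen from the measured values: 1 value per gene was taken (the probe set with the highest mean over the 12 arrays, among those with a single gene symbol), and a gene was kept where the mean log2 signal of the CD47 null monolayer cells lay at least 0.8 below both the wild-type endothelial mean and the mean of embryoid bodies made from CD47 null cells. Of 19938 genes, 83 met this margin and 4 of them (Calcrl, Eda2r, Ptgs2 and Ifit3) were left out by the rule, which leaves 0.396% of all genes. The depth of the dip, the smaller of the 2 differences, ran from 0.80 to 2.35 on the log2 scale with a median of 1.08, and Cd80 was the deepest. Because the rule used CD47 null monolayer cells against each of the other 2 groups, those differences are given as a description with no test.

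The study compared 4 groups of 3 samples, with 1 expression array per sample. The first group (WT_EC) was endothelium cultured from wild-type C57Bl/6 lung and the second (null_EC) its counterpart from CD47 null C57Bl/6 lung, both grown in an endothelial growth medium, EGM2. The third group (null_EB) was embryoid bodies, floating cell clusters that appeared 24 to 36 h after serum-free seeding, in a basal endothelial medium, of CD47 null lung endothelium that had been in passage for 6 months. The fourth (ESC) was V6.5, a single established mouse embryonic stem cell line, kept in DMEM with leukemia inhibitory factor (1000 IU/ml) and fetal bovine serum at 15%. The 2 null groups share the absence of CD47 and the strain, and they differ in growth form and in medium, so that these cannot be told apart. How long the null_EC and WT_EC cultures had been passaged, and whether the 3 samples of a group came from separate mice or cultures, is not given in the sources used here; p-values then measure only the spread between these samples, which may be technical.

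CD47 is a cell surface protein that binds thrombospondin-1 and, on phagocytes, the receptor SIRP alpha, through which it restrains engulfment. CD80, also called B7-1, is a surface ligand that binds CD28 and CTLA-4 on T cells and is best known from antigen-presenting cells, although other cells can carry it. The members are not one pathway: after their values were seen they were sorted by textbook function into 5 genes of immune recognition, 10 induced by interferon, 16 of DNA replication and cell division, 12 of redox and xenobiotic metabolism, 13 secreted or matrix proteins, 8 other membrane proteins, 11 of signalling and transcription, and 4 known by clone names.

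Values are log2 signals, and a difference of 1 is a ratio of 2 between geometric means. The Cd47 probe set read 12.59, 11.29 and 12.48 in WT_EC, 10.98 to 11.11 in null_EC, 10.89 to 10.99 in null_EB and 10.96 to 11.33 in ESC. WT_EC replicates 1 and 3 were above all other arrays, and replicate 2 was close to the null arrays. Which exons the probe set covers and which the null allele lacks is not known here, so it does not settle the genotype labels. Endothelial defining markers were weak or uneven in these cultures. Pecam1 read 6.80, 6.46 and 7.56 in WT_EC and 6.53 to 6.61 over the 6 null arrays, below its 8.84 to 8.87 in ESC. Cdh5 read 9.10, 6.85 and 9.52 in WT_EC and 7.01 to 7.27 over the null arrays. Kdr read 8.51 to 9.35 in WT_EC, 10.52 to 10.83 in null_EC, 7.26 to 7.40 in null_EB and 6.84 to 6.98 in ESC. Here a gene whose group mean lay below 8.01, the median of all values, is said to have low signal, and 26 of the 33 endothelial genes had low signal in null_EC and 19 in WT_EC.

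The WT_EC arrays stood apart from each other, which touches every value set against that group. The median standard deviation of the members over 3 arrays was 0.750 for WT_EC, beside 0.213 over all genes, and 0.110 to 0.133 for the other groups, beside 0.0652 to 0.0847. Markers of macrophages and leukocytes moved with WT_EC replicate 3: the log2 of their summed signal, over 29 of 30 listed genes, was 12.61, 12.40 and 14.86 in WT_EC, at most 12.11 in null_EC, 12.28 to 12.45 in null_EB and 12.22 to 12.28 in ESC. Of these 29 genes, 19 had low signal in WT_EC, 28 in null_EC and 27 in null_EB. Lyz2 read 9.05, 5.44 and 12.31 in WT_EC, Adgre1 6.90, 5.53 and 10.07, and Ptprc 6.48, 6.24 and 9.01, whereas the null arrays stayed at 5.41 to 5.91, 5.48 to 5.81 and 6.29 to 6.49. Cd68, on the same list, differed: it read 9.08, 8.29 and 11.68 in WT_EC and 9.68 to 10.38 over the null arrays. Its null arrays thus lay above WT_EC replicates 1 and 2. In RNA from whole cultures, fewer cells of a type and less RNA per cell cannot be told apart.

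The promoters of a few members are shown because Cd80 led the set and because interferon-induced genes share a known promoter element. RefSeq promoter windows (250 bases before to 50 after the annotated start, GRCm38.p6) were found for 57 of the 79 members, with 70 windows in all, since some genes have several starts. The 250 bases upstream of Cd80, chr16:38458683-38458932 on the plus strand, hold 1 match to the AP-1 motif TGANTCA, in capitals, whose first base lies at -42 from the start.
Cd80: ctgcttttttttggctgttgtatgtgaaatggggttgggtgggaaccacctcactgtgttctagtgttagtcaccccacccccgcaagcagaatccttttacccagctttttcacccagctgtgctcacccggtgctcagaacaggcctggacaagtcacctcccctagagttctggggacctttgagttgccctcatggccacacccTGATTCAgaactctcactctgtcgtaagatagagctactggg
The 250 bases upstream of Cxcl10, chr5:92348890-92349139 on the minus strand, hold in capitals, in this order, a match to the interferon-stimulated response element (ISRE: GAAA, any 2 bases, GAAA), a match to the NF-kB motif (GGGA, any 2 bases, TTCC) and a match to TGANTCA.
Cxcl10: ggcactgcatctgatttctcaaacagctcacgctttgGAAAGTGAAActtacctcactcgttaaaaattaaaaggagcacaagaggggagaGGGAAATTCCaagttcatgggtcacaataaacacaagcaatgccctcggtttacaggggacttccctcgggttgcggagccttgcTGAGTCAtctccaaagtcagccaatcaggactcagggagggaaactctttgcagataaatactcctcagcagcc
Among the 7 interferon-induced members with a window, 5 held the ISRE motif, on either strand (TTTC, any 2 bases, TTTC is the same motif read from the other strand). The match (capitals) with 10 bases on each side is shown for the other 4, at chr12:26456553-26456582 (minus strand) for Rsad2, chr1:173942508-173942537 (minus strand) for Ifi203, chr19:34607759-34607788 (plus strand) for Ifit3b and chr8:61928024-61928053 (plus strand) for Ddx60, followed by Clec2d of the immune recognition group, at chr6:129180416-129180445 (plus strand).
Rsad2: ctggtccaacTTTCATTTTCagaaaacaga
Ifi203: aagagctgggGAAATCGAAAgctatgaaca
Ifit3b: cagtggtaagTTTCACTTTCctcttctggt
Ddx60: gtgatgaatgGAAACCGAAActtaaagctt
Clec2d: agagtgtgctGAAAGAGAAAcgaaacacaa
Ifit3b and Ddx60 each held a second match. Over all members the ISRE motif was in 10 of 70 windows (14.3%), against 3.44% of the 32851 windows of all genes, TGANTCA in 9 (12.9% against 7.81%), the NF-kB motif in 3 (4.29% against 1.47%), the CRE motif TGACGTCA in 1 (1.43% against 1.79%), the TATA box TATAAA in 11 (15.7% against 13.6%) and the E-box CACGTG in 3 (4.29% against 7.15%). Both strands were searched; 2 windows of Ifi203 share 1 TGANTCA match, and in Clca3a2 the ISRE and NF-kB matches overlap. None of the 13 windows of the DNA replication and division members held an ISRE, NF-kB, AP-1, TATA or E-box match. These are matches of letters in a window and say nothing of binding.

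Across the set, the wild-type mean lay 0.85 to 3.37 above null_EC (median 1.62) and the embryoid body mean 0.80 to 2.40 above it (median 1.201). All 3 null_EB arrays lay above every null_EC array for 79 of 79 members, where 21.9% of all genes do, and all 3 WT_EC arrays did so for 63, where 8.88% of all genes do. The rule is set on group means, so it favours both counts without fixing them. For 15 members 2 WT_EC arrays lay above, and for 1, the aldehyde oxidase Aox3, a single array did. The label holds among the endothelial-derived groups only: of the 4 groups null_EC was the lowest for 52 members, and ESC was lower still for 27, where 60.4% of all genes have a lower mean in ESC than in null_EC. Signal was low in null_EC for 45 members, of which 26 were at or above 8.01 in both WT_EC and null_EB, and 4 had low signal in all 4 groups. At the edge of the margin, Zwilch, Auts2 and Angptl4 were just inside at 0.81, 0.80 and 0.80, and Gbp3, Ncs1 and Niban2 just outside at 0.797, 0.792 and 0.790.

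**Figure D1:**
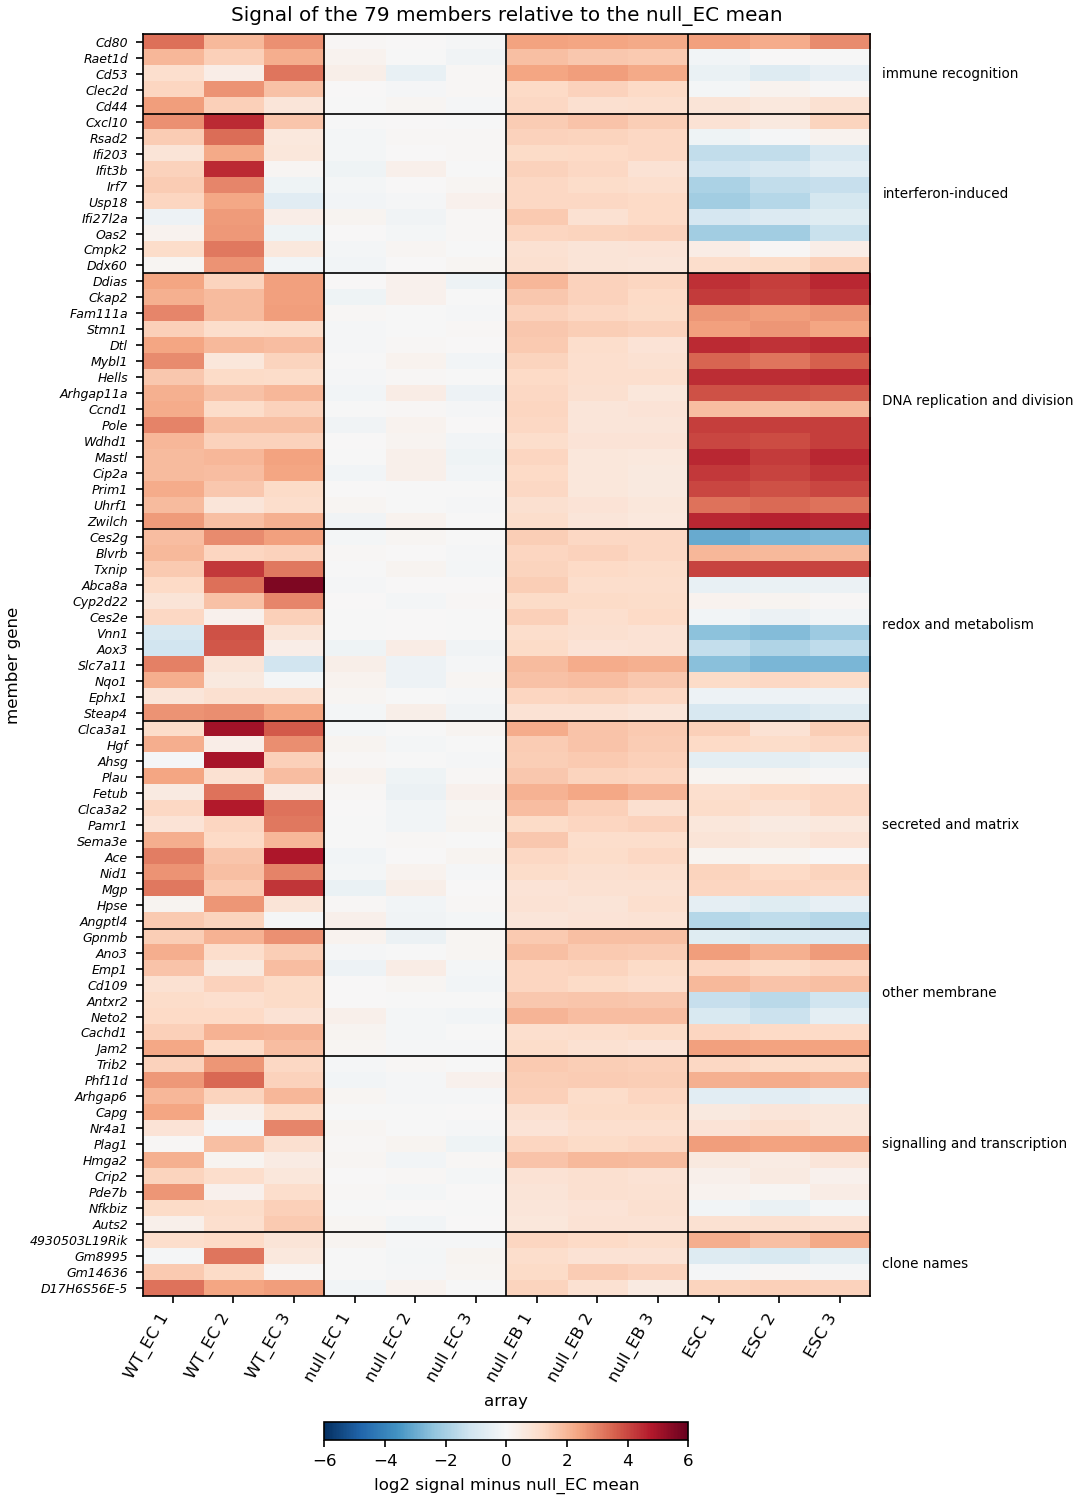
Each row is a member and each column an array; colour is the log2 signal minus that gene's null_EC mean, red above and blue below, with rows grouped by function. The null_EB columns are above the null_EC columns in all 79 rows, which the rule on group means favours. Of the null_EB columns, replicate 1 is the highest in 47 rows. The WT_EC columns differ between replicates, and the ESC means are the highest of the 4 groups in the 16 DNA replication and division rows.

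The embryoid body mean covered a median of 72.2% of the distance from null_EC to WT_EC, with a range of 29.0% to 237% over members. It lay above the WT_EC mean for 17 members, where 53.6% of all genes do. The functional groups differed in this share: the median was 55.7% for DNA replication and division, 71.0% for secreted and matrix proteins, 82.2% for redox and metabolism, 82.8% for signalling and transcription, 85.7% for the interferon-induced genes, 88.4% for immune recognition and 94.955% for the other membrane proteins. These medians are descriptions of genes the rule chose and were not compared by a test.

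Which wild-type array was high depended on the function. The interferon-induced members were highest on WT_EC replicate 2 in 10 of 10 and lowest on replicate 3 in 9 of 10, while the DNA replication and division members were highest on replicate 1 in 12 of 16 and lowest on replicate 2 in 11. Relative to the null_EC mean, the median interferon-induced member read 1.19, 2.81 and 0.27 on the 3 WT_EC arrays and 1.25, 1.21 and 1.18 on the null_EB arrays. The median DNA replication and division member read 2.19, 1.69 and 1.84 on the WT_EC arrays and 1.26, 0.90 and 0.82 on the null_EB arrays, with null_EB replicate 1 the highest in 16 of 16. When WT_EC replicate 2 was left out, 64 of the 79 members still met the margin, and 7 of the 10 interferon-induced members did not. Without replicate 1, 72 still met it, and without replicate 3, 75. The DNA replication and division members met it in 16 of 16 with any 1 WT_EC array left out, but in 9 of 16 without null_EB replicate 1 and in 13 of 16 without null_EC replicate 1 or 3. Without null_EB replicate 1, 68 of all 79 met it, and 42 of the 79 met it in all 9 runs that left out 1 array of the 3 endothelial-derived groups.

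**Figure D2:**
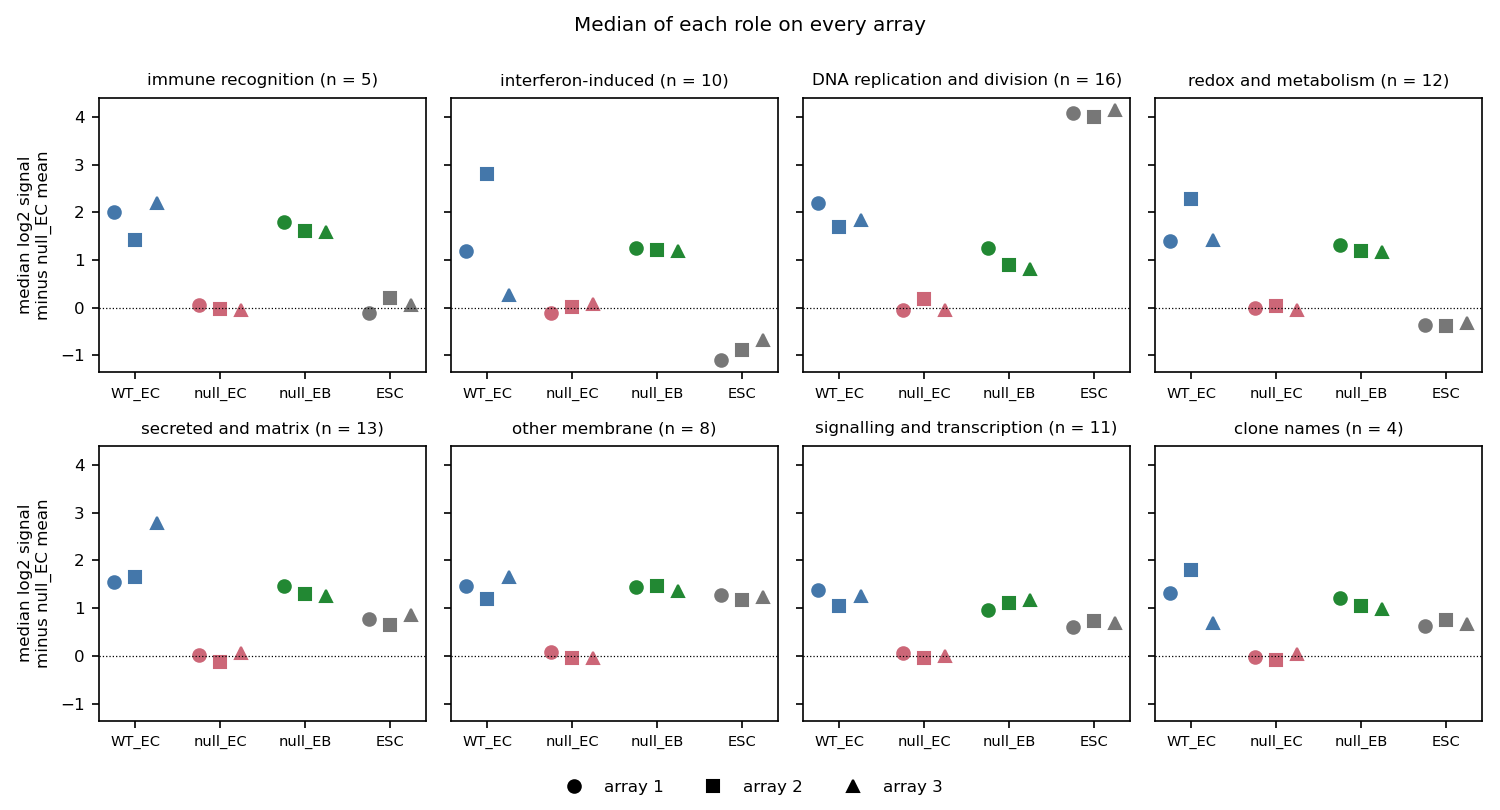
Each panel shows 1 functional group and each point 1 array; the vertical axis is the median over the group's members of the log2 signal minus the null_EC mean, and the symbol is the replicate number. The interferon-induced panel has WT_EC replicate 2 at 2.81 and replicate 3 at 0.27 around null_EB arrays at 1.18 to 1.25, and the DNA replication and division panel has ESC at 4.0035 to 4.14.

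Among the genes of immune recognition, Cd80 read 9.71, 8.33 and 9.14 in WT_EC, 6.46, 6.41 and 6.36 in null_EC, 8.81, 8.76 and 8.70 in null_EB and 8.85, 8.64 and 9.27 in ESC. The null_EC arrays were the lowest 3 of the 12 and did not overlap with any other group, while the other 3 groups overlapped. The ratio to null_EC was 6.30-fold in WT_EC and 5.09-fold in null_EB. A second, dimmer Cd80 probe set read 8.35, 7.63 and 7.90 in WT_EC, 6.94, 6.88 and 7.43 in null_EC, 7.98, 7.89 and 7.88 in null_EB and 7.60, 7.50 and 7.64 in ESC. It also met the margin, with differences of 0.88 and 0.83, and its ESC arrays lay below its null_EB arrays, unlike those of the brighter probe set. The genes of CD80's partners on T cells, Cd28 and Ctla4, read 5.44 to 6.42 on all arrays, and Cd86, the other ligand of CD28, read 5.63 to 6.46.

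Raet1d, of the RAE-1 family of stress-induced ligands for the activating receptor NKG2D on natural killer cells, read 9.71, 9.11 and 9.89 in WT_EC, 7.92, 7.68 and 7.50 in null_EC, 9.49, 9.30 and 9.28 in null_EB and 7.53, 7.71 and 7.69 in ESC. Its ESC arrays lay among the null_EC arrays. Probes for the near-identical RAE-1 genes can take up each other's transcript, so the value is of the family. Clec2d, a lectin-like ligand of natural killer cell receptors of the NKR-P1 family, read 9.54, 10.96 and 9.99 in WT_EC, 8.28, 8.15 and 8.30 in null_EC and 9.42, 9.65 and 9.44 in null_EB. Cd44, the receptor for hyaluronan, read 11.04, 9.96 and 9.29 in WT_EC, 8.51, 8.67 and 8.45 in null_EC and 9.76, 9.52 and 9.57 in null_EB.

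Cd53, a tetraspanin of leukocytes, read 8.64, 8.02 and 10.81 in WT_EC, 7.97, 7.19 and 7.69 in null_EC, 9.9998, 10.14 and 9.91 in null_EB and 7.21, 6.85 and 7.14 in ESC. Its high WT_EC array was the one with leukocyte markers, and without it Cd53 no longer met the margin. In null_EB, where Cd53 was 5.28-fold above null_EC, the leukocyte markers Ptprc, Adgre1 and Lyz2 read 6.35 to 6.49, 5.63 to 5.81 and 5.43 to 5.53, beside 6.29 to 6.43, 5.48 to 5.78 and 5.41 to 5.91 in null_EC. The macrophage marker Cd68 was not low, at 9.93 to 10.38 in null_EB and 9.68 to 10.05 in null_EC.

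**Figure D3:**
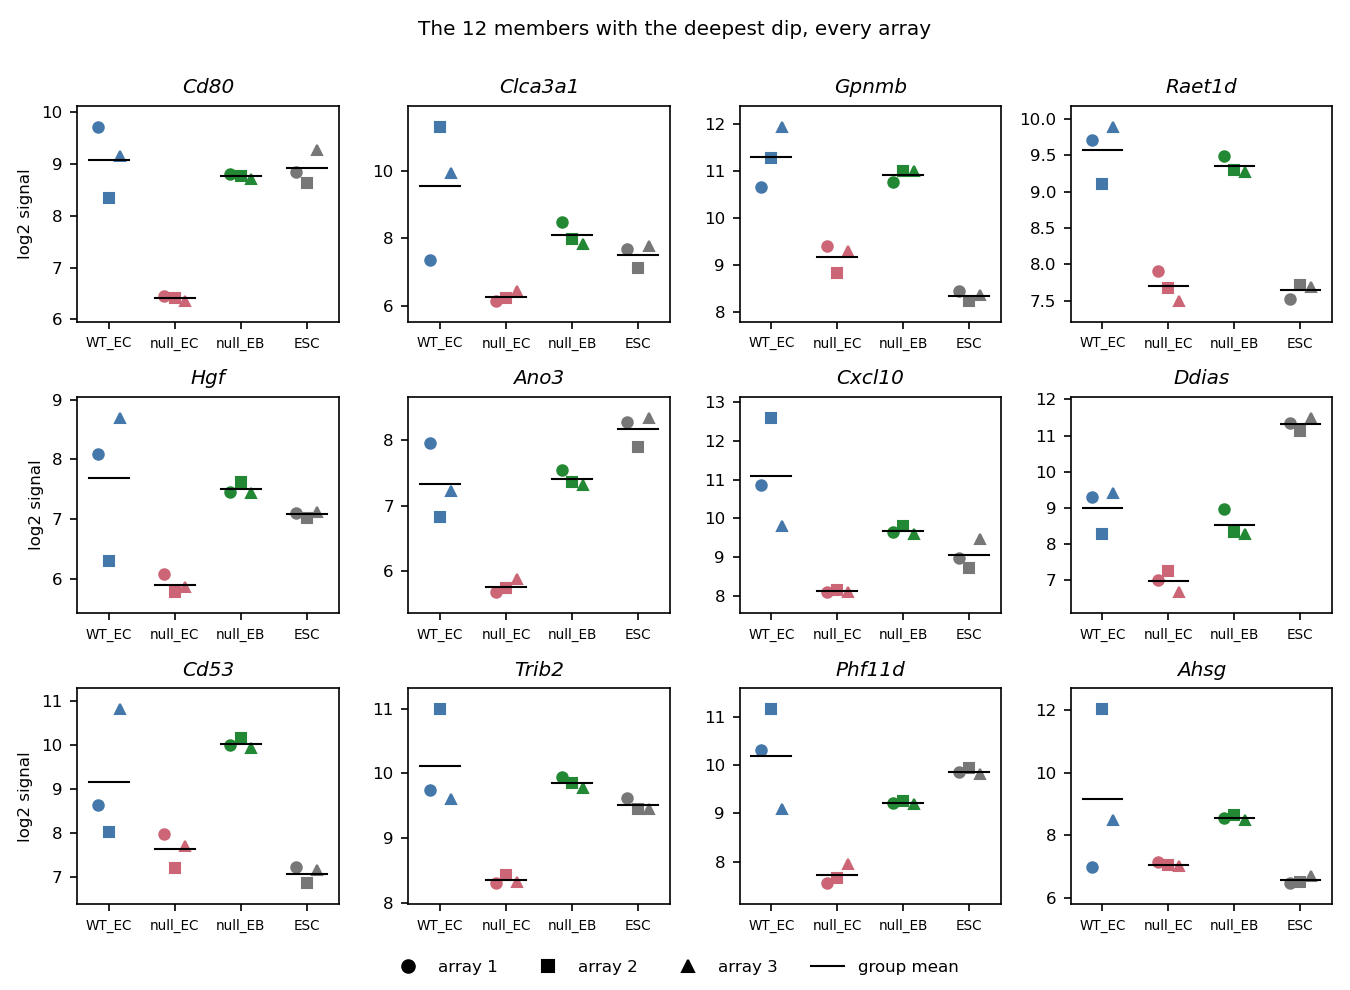
The 12 members with the deepest dip, each panel 1 gene; points are the log2 signals of single arrays, with the symbol for the replicate number, and lines are group means of 3. The null_EC mean is below the WT_EC and null_EB means in each panel, as chosen. The ESC mean ranges from below that of null_EC (Gpnmb, Raet1d, Cd53, Ahsg) to above that of every group (Ano3, Ddias).

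The interferon-induced members carry out or relay the antiviral response, which type I and type II interferons switch on. Cxcl10, a chemokine that draws T cells bearing CXCR3, read 10.86, 12.60 and 9.80 in WT_EC, 8.10, 8.16 and 8.10 in null_EC, 9.64, 9.81 and 9.59 in null_EB and 8.98, 8.72 and 9.46 in ESC. It was above null_EC on every array of the other groups, 7.82-fold in WT_EC and 2.96-fold in null_EB. Rsad2 (viperin, an enzyme that blocks viral replication) read 8.72, 10.57 and 7.83 in WT_EC, 7.07, 7.25 and 7.28 in null_EC and 8.57, 8.52 and 8.43 in null_EB. Its neighbour in the genome, Cmpk2, a mitochondrial nucleotide kinase, read 7.57, 9.63 and 7.12 in WT_EC, 6.38, 6.59 and 6.48 in null_EC and 7.39, 7.25 and 7.31 in null_EB.

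For both neighbours and for Cxcl10 the WT_EC arrays lay above null_EC throughout, which was not so for 6 of the 10 interferon-induced members. Irf7, the transcription factor that amplifies interferon production, read 10.67, 12.06 and 8.90 in WT_EC, 9.01, 9.17 and 9.26 in null_EC and 10.38, 10.27 and 10.15 in null_EB. Usp18, which strips ISG15 from proteins and damps interferon signalling, read 11.37, 12.38 and 9.38 in WT_EC, 9.89, 10.0045 and 10.31 in null_EC and 11.29, 11.32 and 11.25 in null_EB. In both, WT_EC replicate 3 was below every null_EC array and the null_EB arrays were all above them.

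Oas2, which makes the second messenger that activates RNase L, read 9.42, 11.80 and 8.93 in WT_EC, 9.22, 9.10 and 9.28 in null_EC and 10.48, 10.55 and 10.58 in null_EB. Ifi203, of the family of interferon-inducible DNA-binding proteins, read 11.14, 12.63 and 11.04 in WT_EC, 10.24, 10.37 and 10.45 in null_EC and 11.48, 11.55 and 11.57 in null_EB. The other 3 (Ifit3b, Ifi27l2a and Ddx60) had WT_EC means 0.88 to 1.99 above null_EC and null_EB means 0.81 to 1.23 above it. The step from null_EC to null_EB was thus even over the arrays, and the step to WT_EC rested mostly on replicate 2. Ifit3b and Ifi203 have close paralogs whose transcript their probes could take up.

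The 16 members of DNA replication and division act from the licensing of origins to the separation of chromosomes. Ddias, a protein that protects cells with DNA damage from apoptosis, read 9.31, 8.28 and 9.41 in WT_EC, 6.9998, 7.24 and 6.66 in null_EC, 8.95, 8.34 and 8.26 in null_EB and 11.36, 11.14 and 11.49 in ESC. Ckap2, a spindle protein, read 8.73, 8.4998 and 9.08 in WT_EC, 6.36, 6.85 and 6.59 in null_EC, 8.23, 7.96 and 7.79 in null_EB and 10.77, 10.68 and 10.87 in ESC. Dtl, the receptor through which the CRL4 ubiquitin ligase destroys the licensing factor Cdt1, read 9.20, 8.82 and 8.71 in WT_EC, 6.77, 6.91 and 6.88 in null_EC, 8.40, 7.91 and 7.68 in null_EB and 11.32, 11.20 and 11.35 in ESC. For each of these the 4 groups were ordered null_EC, null_EB, WT_EC, ESC, as were the means of 15 of the 16 members, Stmn1 being the exception.

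Fam111a, a protease that works at replication forks, read 9.65, 8.62 and 9.19 in WT_EC, 6.77, 6.68 and 6.64 in null_EC and 8.07, 7.92 and 7.84 in null_EB, and in ESC 9.33, 9.20 and 9.37, among the WT_EC arrays. Stmn1, which destabilises microtubules, read 11.12, 10.74 and 10.80 in WT_EC, 9.63, 9.68 and 9.75 in null_EC, 11.28, 11.18 and 11.06 in null_EB and 12.13, 12.35 and 12.04 in ESC. It was the member of this function whose null_EB mean lay above the WT_EC mean. The catalytic subunit of the leading-strand polymerase, Pole, read 9.86, 8.70 and 8.69 in WT_EC, 6.65, 7.08 and 6.89 in null_EC, 8.10, 7.59 and 7.61 in null_EB and 11.00, 11.02 and 11.02 in ESC. Prim1, the catalytic primase subunit, and Uhrf1, which brings the maintenance methyltransferase to newly made DNA, had WT_EC means of 8.40 and 8.498, null_EC means of 6.72 and 7.27, null_EB means of 7.54 and 8.09 and ESC means of 10.67 and 10.57.

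Over all 16, null_EB was 0.81 to 1.55 above null_EC and WT_EC was up to 2.45 above it. The embryoid bodies therefore had less of these transcripts than the wild-type monolayer and more than the null monolayer in 15 of the 16, a pattern of means that the rule fixes in part.

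Among the redox and metabolic members, Ces2g, a carboxylesterase, read 10.66, 11.63 and 11.27 in WT_EC, 8.66, 8.92 and 8.78 in null_EC, 10.25, 10.01 and 10.05 in null_EB and 5.77, 6.01 and 6.07 in ESC. Blvrb, which reduces flavins and biliverdin, read 11.12, 10.49 and 10.57 in WT_EC, 9.28, 9.20 and 9.11 in null_EC, 10.49, 10.58 and 10.46 in null_EB and 11.20, 11.12 and 11.10 in ESC. Both had all WT_EC and null_EB arrays above null_EC, and in ESC Ces2g had low signal while Blvrb had its highest mean.

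Slc7a11, the cystine importer that feeds glutathione synthesis, read 12.04, 9.81 and 7.87 in WT_EC, 9.39, 8.73 and 8.95 in null_EC, 10.94, 11.27 and 11.14 in null_EB and 6.52, 6.29 and 6.30 in ESC. Nqo1, a quinone reductase that the transcription factor NRF2 induces, read 9.36, 7.78 and 7.06 in WT_EC, 7.38, 6.87 and 7.30 in null_EC, 8.93, 9.02 and 8.79 in null_EB and 8.35, 8.42 and 8.32 in ESC. In both, the WT_EC arrays were far apart, with replicate 3 below the null_EC arrays for Slc7a11 and among them for Nqo1, and neither met the margin without WT_EC replicate 1. Ephx1, the microsomal epoxide hydrolase, was more even, at 10.78, 11.01 and 11.01 in WT_EC, 10.18, 10.03 and 9.98 in null_EC, 11.37, 11.42 and 11.29 in null_EB and 9.74 to 9.77 in ESC.

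Txnip, the inhibitor of thioredoxin that glucose induces, read 10.23, 12.91 and 11.85 in WT_EC, 8.63, 8.83 and 8.55 in null_EC, 9.99, 9.89 and 9.77 in null_EB and 12.73, 12.74 and 12.71 in ESC. Steap4, a metalloreductase, read 10.56, 10.64 and 10.20 in WT_EC, 7.74, 8.20 and 7.63 in null_EC, 8.72, 8.72 and 8.57 in null_EB and 6.88, 6.92 and 7.08 in ESC. Vnn1 (pantetheinase) and Aox3 (an aldehyde oxidase) read 12.48 and 11.57 on WT_EC replicate 2, and on replicate 1, at 7.70 and 6.67, they lay below every null_EC array. Abca8a, a lipid transporter, spread from 7.53 to 11.95 in WT_EC around a null_EC mean of 6.34 and a null_EB mean of 7.52.

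Of the secreted and matrix proteins, Hgf, the ligand of the receptor Met, read 8.09, 6.30 and 8.70 in WT_EC, 6.08, 5.78 and 5.86 in null_EC, 7.45, 7.62 and 7.44 in null_EB and 7.10, 7.03 and 7.13 in ESC. Plau, the urokinase that activates plasminogen, read 10.55, 9.07 and 10.03 in WT_EC, 8.37, 7.94 and 8.23 in null_EC and 9.79, 9.52 and 9.48 in null_EB. Sema3e, a guidance ligand of plexin D1 on endothelium, read 10.70, 9.69 and 10.49 in WT_EC, 8.49, 8.56 and 8.46 in null_EC and 10.11, 9.57 and 9.55 in null_EB. For these 3, which act on receptors or substrates outside the cell, all WT_EC and null_EB arrays lay above null_EC.

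The fetuins Ahsg and Fetub, plasma glycoproteins made mainly by liver whose genes are adjacent, were carried by WT_EC replicate 2. Ahsg read 7.01, 12.03 and 8.48 in WT_EC, 7.15, 7.05 and 7.02 in null_EC and 8.54, 8.64 and 8.51 in null_EB, and Fetub read 7.60, 10.32 and 7.49 in WT_EC, 7.15, 6.71 and 7.33 in null_EC and 9.17, 9.39 and 9.12 in null_EB. Clca3a1 and Clca3a2, adjacent and similar genes of the calcium-activated chloride channel regulator family, read 7.36, 11.31 and 9.94 and 7.16, 10.70 and 9.19 in WT_EC, against null_EC means of 6.26 and 5.92 and null_EB means of 8.10 and 7.32. Their probes could take up each other's transcript.

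Mgp, the matrix protein that inhibits calcification, read 11.18, 9.58 and 12.29 in WT_EC, 7.63, 8.37 and 8.03 in null_EC, 8.82, 8.90 and 8.91 in null_EB and 9.31, 9.30 and 9.24 in ESC. Ace, the angiotensin-converting enzyme of vascular endothelium, read 10.19, 8.79 and 12.0006 in WT_EC, 6.97, 7.15 and 7.31 in null_EC, 8.38, 8.26 and 8.40 in null_EB and 7.16 to 7.30 in ESC. Nid1, the nidogen that links laminin and collagen IV in basement membranes, read 12.47, 11.54 and 12.71 in WT_EC, 9.63, 9.96 and 9.66 in null_EC, 10.85, 10.73 and 10.77 in null_EB and 10.95 to 11.08 in ESC. For these vascular and matrix genes null_EB covered 29.0%, 37.7% and 41.5% of the distance to WT_EC, and WT_EC replicate 3 was the highest array for each. That array held the leukocyte markers and also the highest median of 25 listed fibroblast and smooth muscle genes. This median was 9.11, 8.21 and 10.74 in WT_EC, 7.69 to 8.10 over the null arrays and 9.29 to 9.40 in ESC. The part of either kind of cell in the values was not tested.

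Of the other membrane proteins, Gpnmb, a glycoprotein of macrophages and pigment cells, read 10.67, 11.28 and 11.94 in WT_EC, 9.41, 8.83 and 9.29 in null_EC, 10.76, 11.00 and 11.00 in null_EB and 8.45, 8.24 and 8.37 in ESC. Ano3, of the anoctamin family of channels and scramblases, read 7.95, 6.83 and 7.23 in WT_EC, 5.68, 5.74 and 5.88 in null_EC, 7.55, 7.36 and 7.32 in null_EB and 8.28, 7.90 and 8.34 in ESC. Emp1, a small tetraspan protein, read 12.22, 11.07 and 12.33 in WT_EC, 10.17, 10.93 and 10.35 in null_EC and 11.77, 11.83 and 11.65 in null_EB. Antxr2, a receptor for collagen VI and anthrax toxin, read 10.81, 10.72 and 10.87 in WT_EC, 9.76, 9.69 and 9.70 in null_EC, 11.35, 11.38 and 11.33 in null_EB and 8.35, 8.11 and 8.54 in ESC. Antxr2 had the 4 groups apart on every array, in the order ESC, null_EC, WT_EC, null_EB.

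Among the genes of signalling and transcription, Trib2, a pseudokinase that targets C/EBP proteins for destruction, read 9.74, 10.99 and 9.61 in WT_EC, 8.31, 8.44 and 8.33 in null_EC, 9.95, 9.86 and 9.77 in null_EB and 9.45 to 9.62 in ESC. Phf11d, a zinc finger protein, read 10.32, 11.16 and 9.10 in WT_EC, 7.55, 7.66 and 7.96 in null_EC, 9.22, 9.26 and 9.19 in null_EB and 9.81 to 9.94 in ESC. Arhgap6, a GTPase-activating protein, read 9.13, 8.47 and 9.14 in WT_EC, 7.27, 7.095 and 7.09 in null_EC, 8.56, 8.27 and 8.44 in null_EB and 6.52, 6.53 and 6.69 in ESC. Nfkbiz, an atypical I kappa B protein that NF-kB induces, read 10.70, 10.67 and 10.98 in WT_EC, 9.54, 9.59 and 9.56 in null_EC, 10.31, 10.39 and 10.54 in null_EB and 9.14 to 9.44 in ESC. Nr4a1, an immediate early nuclear receptor, read 9.12, 8.22 and 11.23 in WT_EC, 8.22 to 8.42 in null_EC and 9.11 to 9.32 in null_EB, and it no longer met the margin without WT_EC replicate 3.

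The embryoid bodies were then compared with the wild-type monolayer, a difference the rule did not use, although it used the arrays of both groups against null_EC. Of the 79 members, 23 passed limma's moderated test at an adjusted p below 0.05, or 29.1%, where 18.5% of all genes did. Lower in null_EB were 20 members, against 6.19% of all genes, and higher were 3, against 12.3%. Over the members the median difference was -0.37, beside 0.02 over all genes. Both groups were chosen to be high, and the median standard deviation of the members was 0.750 in WT_EC and 0.117 in null_EB. The choice can therefore raise WT_EC more and shift this difference down, by an amount that was not tested. The shares of all genes, which were not so chosen, are given for scale only. Because the 4 groups share 1 estimate of the spread and WT_EC varied most, p-values against WT_EC tend to be too small, and those between the other groups too large.

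The genes of DNA replication and division made up 10 of the 20 that fell. Zwilch, of the kinetochore complex that holds the spindle checkpoint, fell by 1.37 ± 0.18 (SE) with an adjusted p of 0.000630, Pole fell by 1.32 ± 0.28 with an adjusted p of 0.00770, and Mastl, the Greatwall kinase of mitotic entry, fell by 1.23 ± 0.20 with an adjusted p of 0.00199. For these 3 the null_EB and WT_EC arrays did not overlap. Stmn1 differed by 0.29 and Hells, a chromatin remodeller, by -0.23, and neither was called.

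In the other direction, Neto2, an auxiliary subunit of kainate receptors, rose by 0.83 ± 0.18 with an adjusted p of 0.00994, Antxr2 rose by 0.55 ± 0.10 with an adjusted p of 0.00300, and Ephx1 rose by 0.43 ± 0.08 with an adjusted p of 0.00535. All 3 had every null_EB array above every WT_EC array. Among called members, the largest decreases were those of Mgp, by 2.14 ± 0.50 with an adjusted p of 0.0141, Ace, by 1.98 ± 0.58 with an adjusted p of 0.0359, and Steap4, by 1.80 ± 0.15 with an adjusted p of 4.77e-05. Abca8a differed by -2.19 and was not called, with an adjusted p of 0.0814. The call of Ace was lost in 9 of the 12 runs that left out 1 array, those without any 1 of the null_EC, null_EB or ESC arrays, with an adjusted p of up to 0.107. Txnip fell by 1.78 and Nid1 by 1.46, and the call of Txnip was lost without WT_EC replicate 3 or any 1 null_EB array, with an adjusted p of up to 0.0857.

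None of the 5 genes of immune recognition and none of the 10 interferon-induced genes was called in this comparison by limma, where 18.5% of all genes were. In each of these functions 1 gene had an unadjusted p below 0.05. With so few genes, the lack of calls is not read as a match of null_EB to WT_EC. Of the interferon-induced genes, 4 were called higher without WT_EC replicate 2 and 2 lower without WT_EC replicate 3. Of the genes of immune recognition, 2 were called lower without WT_EC replicate 2, 1 lower without replicate 1, and 1 higher and 1 lower without replicate 3. Cd80 differed by -0.31 with a 95% interval of -0.92 to 0.30 and an adjusted p of 0.509. Cxcl10 differed by -1.40 with an interval of -2.55 to -0.26 and an adjusted p of 0.0892, and Cd53 by 0.86 with an interval of -0.34 to 2.06. Without WT_EC replicate 2 Cd80 was called, at a difference of -0.67. The count of calls also rested on that array: it was 43 of 79 without WT_EC replicate 2, and 17 of 79 without null_EB replicate 2.

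**Figure D4:**
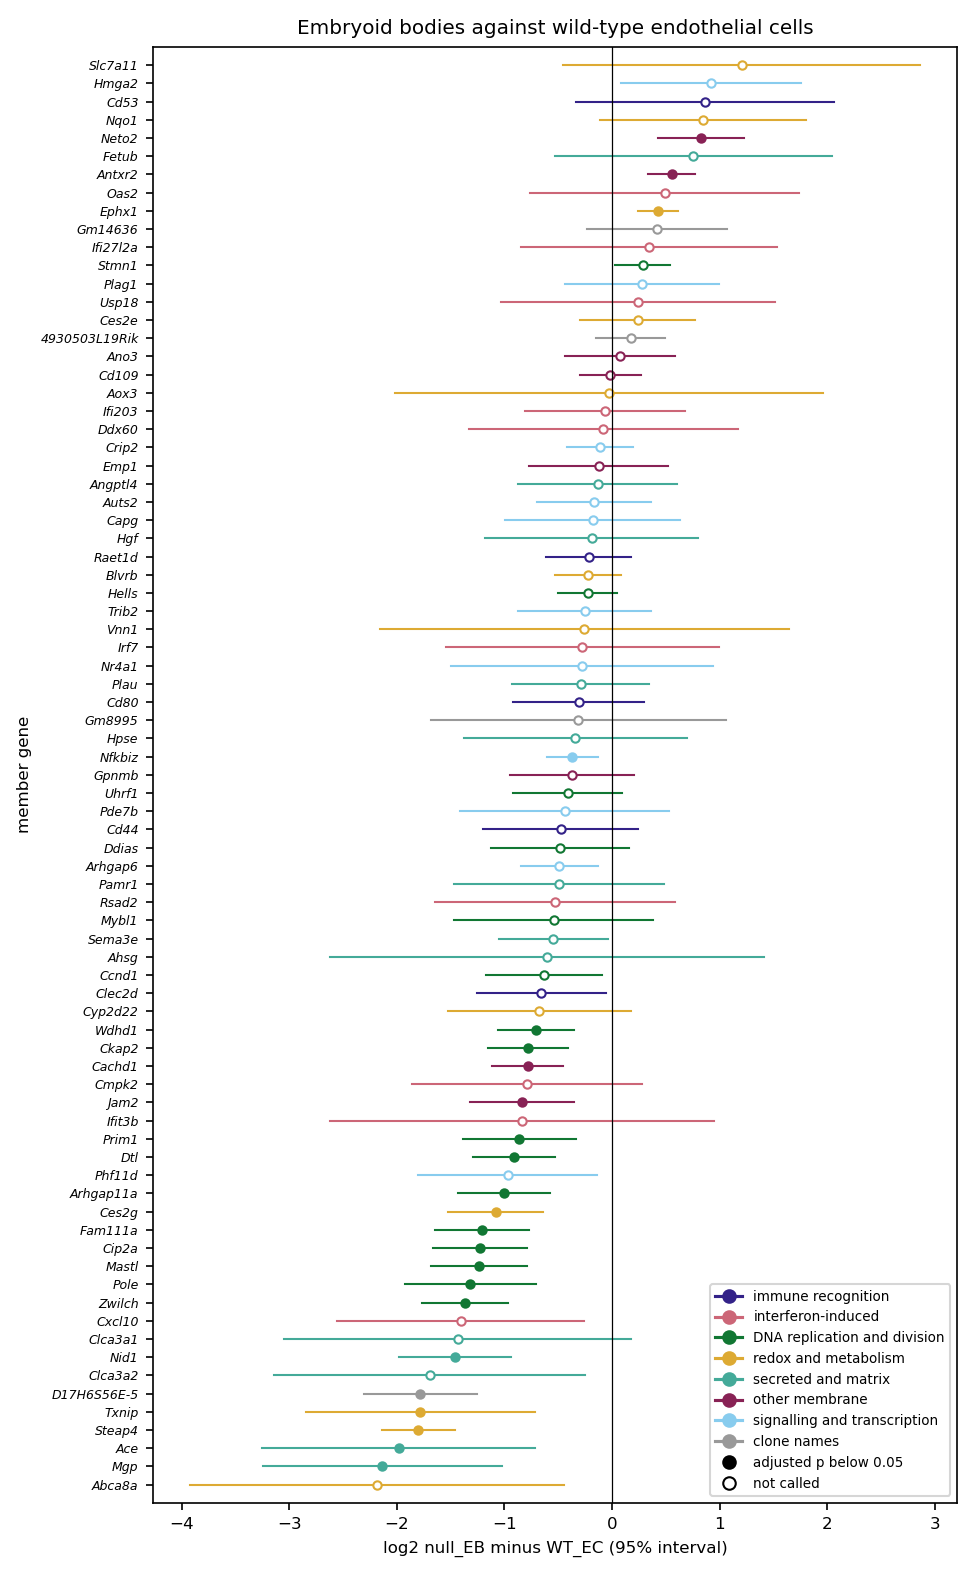
Each point is the log2 difference between the null_EB and WT_EC means of 1 member, with its 95% interval, coloured by function; filled points passed limma's test at an adjusted p below 0.05 and open ones did not. The called genes of DNA replication and division lie between -1.37 and -0.71, and the intervals of the interferon-induced genes reach from -2.62 to 1.74.

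The embryonic stem cells were not used by the rule, but the groups they are set against were: WT_EC and null_EB were chosen to be high and null_EC to be low, which shifts these differences down and up. Against WT_EC, 62 members were called by limma, 20 higher and 42 lower, where 47.1% of all genes were called, 25.4% higher and 21.7% lower. Against null_EB, 50 were called, 23 higher and 27 lower, where 44.8% of all genes were, 21.8% higher and 23% lower. Against null_EC, 49 were called, 35 higher and 14 lower, where 47.9% of all genes were, 22.9% higher and 25.1% lower. The median differences of the members were -1.02, -0.51 and 0.81, beside -0.07, -0.08 and -0.09 over all genes. These 3 comparisons share the ESC arrays.

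In stem cells the set split by function. The genes of DNA replication and division were higher in ESC in 14 of 16 against WT_EC, 16 of 16 against null_EB and 16 of 16 against null_EC, with median differences of 2.11, 2.98 and 4.09. Hells rose by 3.18 ± 0.13 against WT_EC with an adjusted p of 8.83e-09, by 3.40 against null_EB and by 4.47 against null_EC. Zwilch rose by 2.37, 3.73 and 4.54, and Dtl by 2.38, 3.29 and 4.43 in the same order, with all ESC arrays above all others. The 2 not called against WT_EC were Ccnd1, cyclin D1, at 0.27 and Fam111a at 0.15. The ESC mean lay above both the WT_EC and null_EB means for 24 of the 79 members, a share no higher than the 33.4% of all genes. Of these 24 members, 16 were of this function.

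The interferon-induced genes went the other way. Against WT_EC 9 of 10 fell and against null_EB 5 of 10 fell (8 without WT_EC replicate 2), with medians of -2.30 and -2.08. Against null_EC 4 of 10 fell, with a median of -0.88, a count that was 1 without null_EC replicate 1 or 3 or ESC replicate 1 or 2, and 2 without null_EC replicate 2 or any 1 null_EB array. Irf7 fell by 2.98 ± 0.57 against WT_EC with an adjusted p of 0.00134, by 2.70 against null_EB and by 1.58 against null_EC, and Oas2 fell by 2.68, 3.17 and 1.83. Usp18 fell by 1.62 against null_EC, a call lost in 8 of the 12 runs that left out 1 array (all but those without a WT_EC array or ESC replicate 3), with an adjusted p of up to 0.122. The calls of Irf7 and Oas2 against null_EC were lost in 9 and 4 of the 12 runs that left out 1 array, with adjusted p-values of up to 0.117 (for Irf7, without any 1 of the null_EC, null_EB or ESC arrays) and 0.0652 (for Oas2, without null_EC replicate 1 or 3 or ESC replicate 1 or 2). The member not called against WT_EC was Ddx60, an RNA helicase, at 0.33, and it was not called against null_EB either, at 0.41.

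Cd80 was the only 1 of the 5 genes of immune recognition called against null_EC. Its ESC level was 2.51 ± 0.28 above null_EC with an adjusted p of 1.91e-05, and it differed from null_EB by 0.16 (95% interval -0.45 to 0.77, adjusted p of 0.660) and from WT_EC by -0.15 (-0.76 to 0.46, adjusted p of 0.682). Without WT_EC replicate 2 the difference from WT_EC was -0.51 and was called. On the dimmer Cd80 probe set the means were 7.58 in ESC, against 7.09 in null_EC, 7.92 in null_EB and 7.96 in WT_EC. Raet1d, Clec2d and Cd53 were lower in ESC than in WT_EC, by 1.93, 1.87 and 2.09, and were not called against null_EC, at -0.05, 0.05 and -0.55. Cd44 was called in none of the 3 comparisons by limma, at -0.77, -0.29 and 0.78, with 2 of them at an unadjusted p below 0.05.

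The redox and metabolic genes held the largest decreases in ESC. Ces2g fell by 5.23 ± 0.20 against WT_EC with an adjusted p of 6.87e-09, by 4.15 against null_EB and by 2.84 against null_EC. In the same order Slc7a11 fell by 3.54 ± 0.75, 4.75 and 2.66. Vnn1 fell by 3.63, fell by 3.37 and fell by 2.41, and Abca8a fell by 3.76 ± 0.79 against WT_EC. The call of Vnn1 against null_EC was lost in 9 of 12 runs that left out 1 array, those without any 1 null_EC, null_EB or ESC array, with an adjusted p of up to 0.0985. Txnip and Blvrb went the other way: Txnip rose by 4.06 against null_EC and 2.85 against null_EB, and Blvrb rose by 1.95 and 0.63. Nqo1 rose by 1.18 against null_EC, a call lost in 9 of the 12 runs, those without any 1 null_EC, null_EB or ESC array, with an adjusted p of up to 0.132.

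Of the remaining functions, the secreted and matrix proteins were lower in ESC than in WT_EC in 11 of 13 and lower than in null_EB in 3 of 13, where 23% of all genes were lower. The count of 11 was 7 without any 1 ESC array, since Clca3a1, Clca3a2, Ahsg and Pamr1 then lost their calls, and the count of 3 was 8 without WT_EC replicate 2 and 5 without WT_EC replicate 3. The other membrane proteins divided, with 3 higher and 4 lower of 8 against WT_EC: Gpnmb fell by 2.94 ± 0.26 and Antxr2 by 2.47 ± 0.10, while Cd109, a surface protein that binds TGF-beta, rose by 0.68 ± 0.13. Plag1, a zinc finger transcription factor, rose by 1.53 ± 0.32 against WT_EC, 1.24 against null_EB and 2.46 against null_EC.

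**Figure D5:**
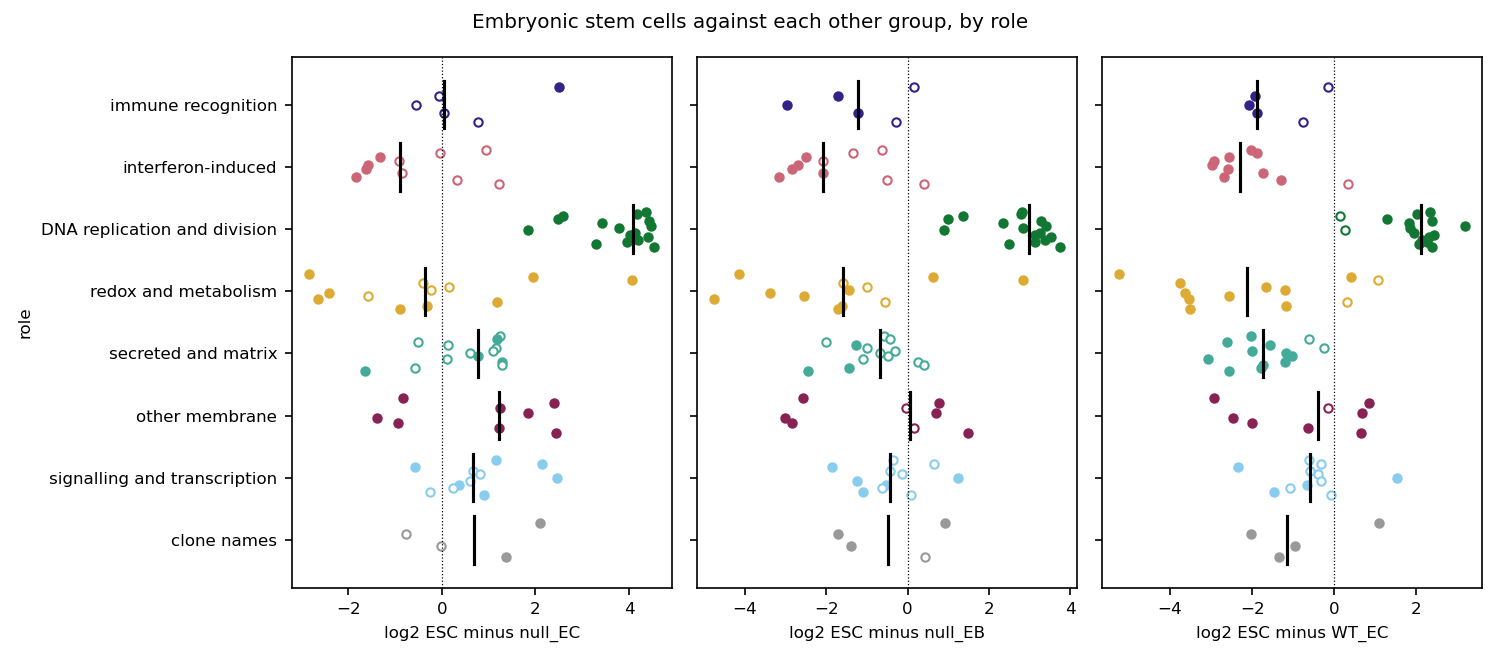
Points are members, placed by the log2 difference of the ESC mean from the null_EC, null_EB or WT_EC mean; rows are functions, black bars are medians, and filled points passed limma's test at an adjusted p below 0.05. DNA replication and division lies to the right in each panel, with medians of 4.09, 2.98 and 2.11, and the interferon-induced genes lie mostly to the left, with medians of -0.88, -2.08 and -2.30.

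The other genes of these pathways were read from lists of textbook genes, leaving the members out. Calcrl, Eda2r, Ptgs2 and Ifit3, which met the margin but are not members, were not taken out. Where a list holds 1 of them, its counts for null_EC against WT_EC or null_EB include a gene that met the same margin. Of 44 other replication and mitosis genes, 37 had less signal in null_EC than in WT_EC and 0 had more, where 5% of all genes were lower and 8.12% higher, and 34 were lower in null_EB than in WT_EC and 0 higher, 2 comparisons that share the WT_EC arrays. Between null_EB and null_EC 0 of the 44 were called by limma, where 5.4% of all genes were (2.9% higher and 2.5% lower), with 11 higher and 1 lower at an unadjusted p below 0.05 and a median difference of 0.28. The members on this list, Pole, Prim1 and Uhrf1, had differences of 0.89, 0.82 and 0.81 there. In ESC, 43 of the 44 were higher than in WT_EC, 44 higher than in null_EB and 42 higher than in null_EC. Of all genes 25.4%, 21.8% and 22.9% were higher in these comparisons. The higher signal in ESC is therefore not particular to the members of this function.

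For the lists that follow, 5% of all genes were lower and 8.12% higher in null_EC than in WT_EC. Between null_EB and null_EC, 2.9% of all genes were higher and 2.5% lower. Of 30 other interferon response genes, 5 were lower in null_EC than in WT_EC and 0 higher. In null_EB 1 of the 30 was higher than in null_EC, near the share of all genes, with a median difference of 0.39. In ESC 23 of the 30 were lower than in WT_EC and 21 lower than in null_EB, with 0 higher in either, where 21.7% and 23% of all genes were lower. Of 34 other p53 targets (Cd80, Ano3, Ckap2 and Ephx1 are the members), 9 were lower and 2 higher in null_EC than in WT_EC, and 11 were higher and 0 lower in null_EB than in null_EC, 2 comparisons that share the null_EC arrays. Of 27 other NRF2 and oxidative stress genes, 6 were lower in null_EC than in WT_EC and 6 higher in null_EB than in null_EC.

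Lists that hold Cd80 and Nfkbiz were read in the same way. Of 30 other genes of costimulation, the B7 family and its receptors, 3 were lower and 1 higher in null_EC than in WT_EC, where 5% and 8.12% of all genes were. In null_EB 1 of the 30 was lower and 0 higher than in null_EC, where 2.5% and 2.9% of all genes were. Of 42 other genes of the NF-kB and inflammatory response, 14 were lower in null_EC than in WT_EC, and 2 were higher and 4 lower in null_EB than in null_EC, where 2.9% and 2.5% of all genes were. Against WT_EC, 18 of the 42 were lower and 2 higher in null_EB, where 6.19% and 12.3% of all genes were. Nfkbiz itself fell by 0.37 in null_EB against WT_EC with an adjusted p of 0.0368, a call that was lost in 7 of 12 runs that left out 1 array (WT_EC replicate 3, any 1 null_EC array, null_EB replicate 1 or 2, or ESC replicate 1), with an adjusted p of up to 0.128.

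Some members are neighbours on a chromosome. Rsad2 and Cmpk2, Ahsg and Fetub, and Clca3a1 and Clca3a2 had 0 other protein-coding genes between them in the RefSeq order, and Ces2e and Ces2g, and Pamr1 and Cd44, had 1. Pamr1, a secreted regeneration-associated protein, read 7.52, 7.97 and 9.84 in WT_EC, 6.68, 6.52 and 6.85 in null_EC and 7.85, 7.97 and 8.04 in null_EB.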

How the data were processed

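RNA of 12 samples, 3 per group, was hybridised to Affymetrix mouse whole-transcript arrays. The deposited values are log2 signals that the authors made by RMA in Expression Console 1.2.1, per the submitters' processing notes; RMA corrects background, equalises the arrays' distributions and summarises probes, so a shift shared by most genes would be removed. The values carry no detection calls, and 3 arrays per group limit the precision. The labels' protocol names a human array, but the probe set identifiers match the mouse platform. Of 35556 probe sets, 21789 had 1 gene symbol, 1621 had several and 12146 had none, which gave 19938 genes.

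limma 3.58.1 in R 4.3.3 was fitted over all 12 arrays with a mean per group, p-values were adjusted over all genes by Benjamini-Hochberg, and a call is an adjusted p below 0.05. The fit was tested on simulated data in which each gene had the same spread in every group. That test cannot show how the fit behaves where WT_EC varied more than the other groups. The tables were made with Python 3.11.15 and pandas 2.3.3. The members and gene lists were chosen with earlier results of these data known, and the functional groups were assigned after the values were seen. Genes were named by a rule: Cd47, Cd80, the 30 deepest members, members in a pathway list, 3 genes on each side of the margin and the 3 largest called differences per direction; further members named were chosen after their values were seen. Alternatives covered scaling, low signal, probe sets, the samples fitted, array weights, the prior, the replicate block, the margin and each array left out.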

Additional observations from a re-analysis of the deposited data

How the results depend on the processing

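The 23 members called between null_EB and WT_EC were 8 when those 2 groups alone were fitted, and 17 to 43 with 1 array left out, the highest without WT_EC replicate 2. The number of members, 79, was 168 at a margin of 0.6 and 44 at a margin of 1, with the same 4 genes left out each time. The median difference of null_EB from WT_EC was -0.51 to -0.38 with 1 array of those groups left out, the lowest without WT_EC replicate 3. The median difference of ESC from WT_EC was -1.31 after a shift of each array by housekeeping genes and -1.07 to -0.82 with 1 array of those groups left out. That shift moved the median of all genes by -0.29 (ESC against WT_EC), -0.27 (against null_EB) and -0.21 (against null_EC), and no called member changed sign. Replicate numbers did not pair the samples: at most 1 of 3 same-numbered pairs in any 2 groups had correlated deviations over 0.1. With the replicate number as a block, 24, 60, 49 and 48 members were called, against 23, 62, 50 and 49 without it (null_EB against WT_EC, then ESC against WT_EC, null_EB and null_EC). Fitted without any WT_EC array, an alternative chosen after seeing the data, 73 members were called between ESC and null_EB and 72 between ESC and null_EC. Over all members, the 4 comparisons and every alternative, a call was lost in 240 of 3595 fits of called members, gained in 261 of 2567 fits of members not called, and reversed in 0. No depth can be given for arrays, and members with low signal have understated differences.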

Other observations

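The 79 members followed 8 orders of the 4 group means. In 20 the order from low to high was null_EC, null_EB, WT_EC, ESC, in 18 it was null_EC, ESC, null_EB, WT_EC, in 17 it was ESC, null_EC, null_EB, WT_EC, and in 10 it was ESC, null_EC, WT_EC, null_EB; the other 4 orders held 1 to 7 members each. Of the 4 genes the rule left out, the adrenomedullin and CGRP receptor gene Calcrl had a dip of 1.90, the cyclooxygenase Ptgs2 2.07, the interferon-induced Ifit3 1.51 and the ectodysplasin receptor Eda2r 1.36, all within the range of the members. Among the 4 members with clone names, 1 was lower in null_EB than in WT_EC, and 3 were lower (1 without ESC replicate 1) and 1 higher in ESC than in WT_EC, by limma at an adjusted p below 0.05.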
